A study of Mus musculus with 14 samples.

Results

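The miRNAs of the imprinted Dlk1-Dio3 region that lie outside the Rtl1-antisense group were followed across 4 sorted populations of the mouse mammary gland. They were found by name, as mouse (mmu) or rat (rno) assays without an asterisk whose miRNA number belongs to the region. This gave 53 of the 584 miRNA assays of the normalized table, for 39 precursors, with 46 mouse and 7 rat assays. The rule uses names and no measured value, but it was set with earlier results of these data known. Plate A of the PCR array set held 47 of them and plate B the other 6 (miR-300, miR-485, miR-673-3p, miR-673-5p, mmu-miR-758 and rno-miR-493). Cells came from glands of untreated adult FVB/N mice, a wild-type inbred strain, and each sample was a pool of mice. MaSC/basal cells (CD29hi CD24+, 4 samples) hold stem cells, basal progenitors and myoepithelial cells. Luminal progenitors (CD29lo CD24+ CD61+, 3 samples) and mature luminal cells (CD29lo CD24+ CD61-, 3 samples) make up the inner layer of the ducts. The stromal fraction (CD29- CD24-, 4 samples) is what lacks both surface markers and is not 1 cell type. The labels give epithelial samples of the same number a shared mouse pool, and put the 4 samples of stroma in 1 further pool. Stroma and mouse pool therefore cannot be told apart, and its samples may not stem from different animals.

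In this region of distal chromosome 12 the protein-coding genes Dlk1, Rtl1 and Dio3 are expressed from the paternal chromosome, while long non-coding RNAs (Meg3, Rtl1-antisense, Rian and Mirg) and the miRNAs are expressed from the maternal one. The miRNAs are cut from these long transcripts, so that many precursors can share a transcript. They are known for high levels in the embryo, the placenta and the brain, and mice that lack the large miR-379 to miR-410 cluster fail to adapt their metabolism at birth.

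In the RefSeq annotation (GRCm38.p6) all 39 precursors lie on the plus strand of chromosome 12, in 3 groups set apart by at least 10 kb. Of these precursors Mir770 lies within Meg3, Mir370 within Rian and 7, from Mir453 to Mir410, within Mirg as annotated, while 30 lie in none of these genes. The first group, chr12:109563692-109586407, runs from Mir770 to Mir665 with 6 precursors over 22.7 kb, read by 11 assays. The second holds Mir370 alone (chr12:109618258-109618336). The third, chr12:109709060-109743795, runs from Mir379 to Mir410 with 32 precursors over 34.7 kb, read by 41 assays. A mature miRNA recognises its targets mainly through its seed, bases 2 to 8 from the 5′ end, which is in capitals in the RefSeq sequences that follow. They belong to members that were higher in every stromal sample (miR-382, miR-379, miR-411 and miR-337), to members without epithelial signal (miR-673-3p, miR-673-5p and miR-409-5p) and to the one tested member without a call against stroma (miR-666-5p). For 18 assays the name gives the arm of the precursor. For 34 it does not, as for miR-382, miR-379 and miR-411, so both annotated arms are shown for these 3.
mmu-miR-382-5p: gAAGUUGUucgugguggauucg
mmu-miR-382-3p: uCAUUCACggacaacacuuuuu
mmu-miR-379-5p: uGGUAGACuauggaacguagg
mmu-miR-379-3p: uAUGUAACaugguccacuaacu
mmu-miR-411-5p: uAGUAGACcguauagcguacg
mmu-miR-411-3p: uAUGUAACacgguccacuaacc
mmu-miR-337-5p: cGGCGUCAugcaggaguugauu
mmu-miR-337-3p: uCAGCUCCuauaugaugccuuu
mmu-miR-673-5p: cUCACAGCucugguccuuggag
mmu-miR-673-3p: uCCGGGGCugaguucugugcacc
mmu-miR-409-5p: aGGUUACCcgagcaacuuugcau
mmu-miR-409-3p: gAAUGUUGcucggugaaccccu
mmu-miR-666-5p: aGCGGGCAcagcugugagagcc

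Seeds were mostly not shared. The 3p arms of miR-379 and miR-411, whose precursors neighbour each other, have the same seed, AUGUAAC. The other seeds held by 2 annotated arms were GGUUGCC (miR-453 and miR-496a-5p), GGUUGUC (miR-410-5p and miR-494-5p) and UGGAUAU, in a pair of 5p arms from nearby precursors of the miR-376 family:
mmu-miR-376b-5p: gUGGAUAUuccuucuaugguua
mmu-miR-376c-5p: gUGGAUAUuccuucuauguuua

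Levels are given on the deposited normalized log2 scale, on which 1 unit is 1 PCR cycle and an undetected reaction (Ct of 40) lies near 0 or 1. Assays differ in efficiency, so levels of different assays are not compared. Over all assays, 338 to 366 were detected per epithelial sample and 448 to 454 per stromal sample, of 375 on plate A and 209 on plate B. On plate A alone these were 256 to 279 and 287 to 292, so the gap was narrower there. The labels were checked against marker miRNAs. Of 9 epithelial miRNAs (the miR-200 and miR-183 families and miR-205), 9 were lower in stroma. Of 6 mesenchymal miRNAs 5 were higher there, with miR-199a-3p at 26.18 in stroma against 18.30, 18.16 and 17.53 in MaSC/basal, luminal progenitor and mature luminal cells. Of 5 blood cell miRNAs none rose and 2 fell in stroma, of 2 endothelial ones none rose and 1 fell, and of 4 neural ones none rose and 3 fell. The library labelled MaSC/basal 4, of a mouse pool of its own and not in the study's plot of these samples, went against its label. Its summed level over 5 assays of muscle miRNAs was 17.94, against 22.95 to 23.96 in MaSC/basal 1 to 3 and 16.48 to 19.12 in the luminal samples. Its summed mesenchymal level, carried by miR-143 and miR-145, was 22.28 against 28.30 to 29.43. It was left out of the comparisons, which use 13 samples, and the counts of epithelial calls are also given with it.

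More miRNAs of the region were detected in stroma than in epithelium. Of the 53 assays, 46, 46, 48 and 47 were detected (Ct below 40) in stromal samples 1 to 4. In MaSC/basal 1 to 3 the numbers were 29, 26 and 29, in luminal progenitors 23, 21 and 25, and in mature luminal cells 23, 24 and 25. The highest epithelial number was thus well below the lowest stromal one, and MaSC/basal 1 to 3 each detected at least as many as any luminal sample. The library labelled MaSC/basal 4 detected 21, no more than any luminal sample. On plate A alone, 41 to 43 were detected in stroma and 21 to 29 in epithelium. Over all 375 assays of plate A, 287 to 292 were detected in stroma. Epithelial numbers were 264 to 279 in MaSC/basal 1 to 3, 256 to 265 in luminal progenitors and 268 to 276 in mature luminal cells. In all, 19 of the 53 assays were detected in every one of the 13 samples. A further 25 were detected in all 4 stromal samples, 14 of them in 1 to 8 epithelial samples and 11 in none. Of the others, 5 were detected in 1 to 3 stromal samples, and miR-540-3p, miR-654-5p, rno-miR-543 and mmu-miR-758 in none of the 14 samples. A difference between populations in such sorted material can be fewer cells with the miRNA or less of it in each cell, which cannot be told apart here.

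**Figure D1:**
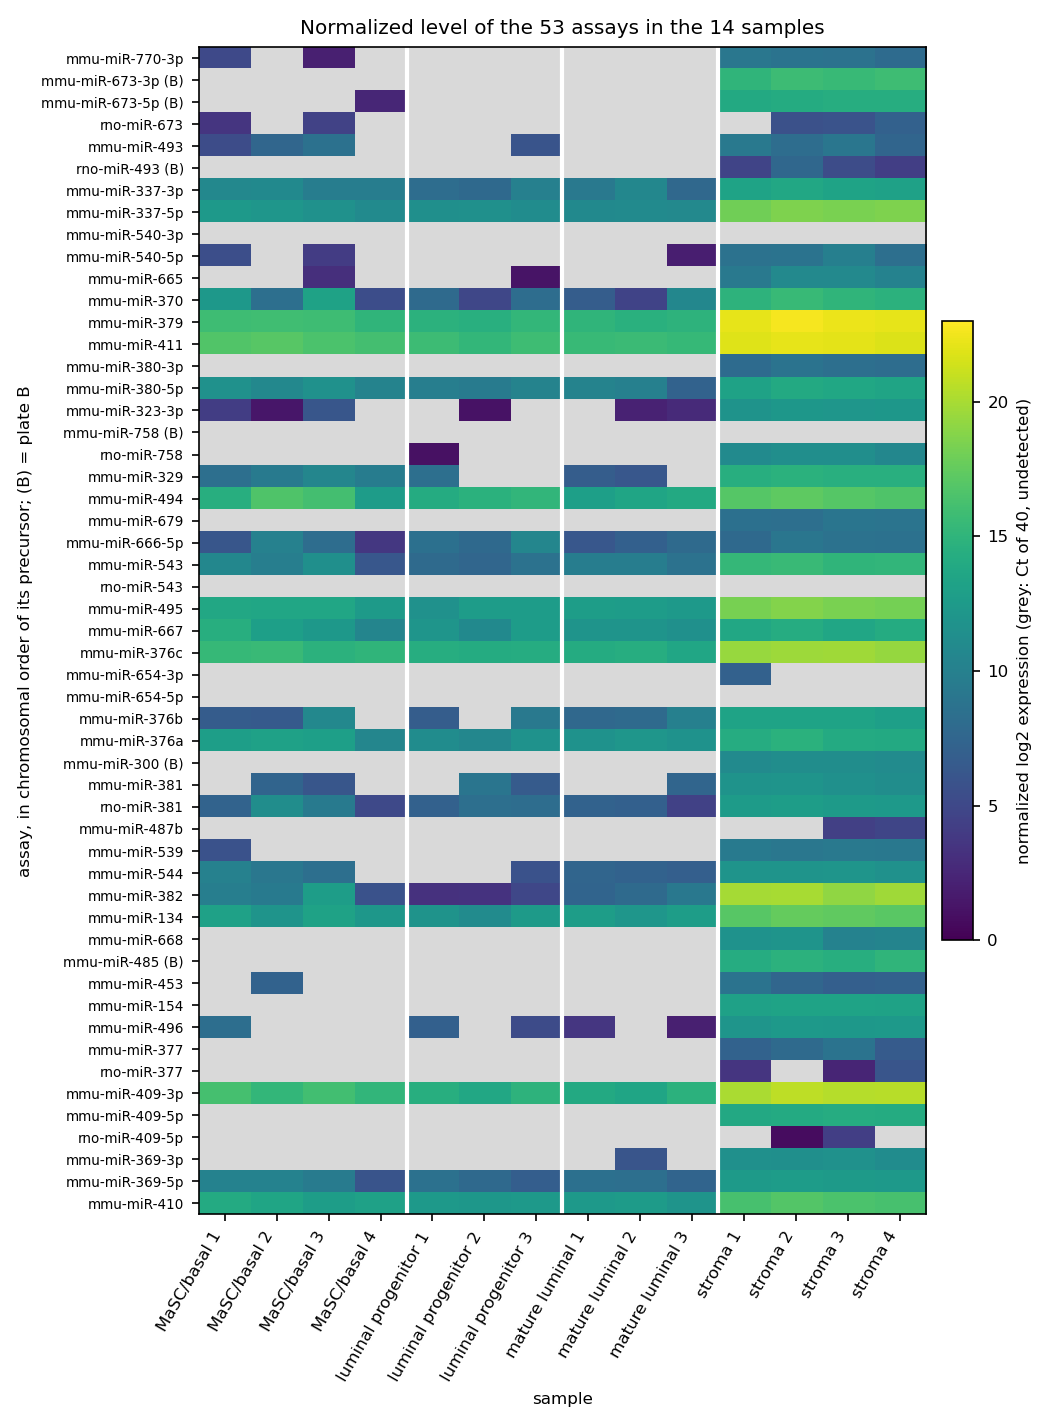
Normalized log2 expression (colour) of the 53 assays (vertical axis, in chromosomal order of their precursors, with plate B assays marked) in the 14 samples (horizontal axis, by population). Grey cells are reactions with a Ct of 40. The 4 stromal columns hold 46 to 48 detected assays and the other 10 columns 21 to 29.

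The miRNAs of the region were higher in stroma. Differences were tested with limma over the 459 assays of the table with 3 or more samples at or above 2 on the normalized scale, at an adjusted p of 0.05 (Benjamini-Hochberg). Of the 53 assays, 46 passed this filter and 45 of these were higher in stroma than the mean of the epithelial populations, against 47.9% of all assays tested. None was lower, also at an unadjusted p under 0.05. Their median log2 difference was 6.64 and that of all assays tested 0.62. On plate A 40 of 41 were higher, against 37.7% of the plate's assays. These counts and the members' median rest in part on the filter. Of the 46, 12 had no epithelial signal and passed it through stroma alone, as did others named with the groups of precursors. This does not apply to the 19 detected in all 13 samples. Of those 18 were called higher, against 33.9% of the 304 assays so detected, and 17 had every stromal value above every epithelial value (23.7% of the 304). Their differences ran from 0.46 to 12.14 with a median of 4.89, where the 304 had a median of -0.34. The SEs and p-values do not cover the spread between pools of stroma.

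miR-382 had the widest difference of the 19. Its levels were 19.93, 20.03, 19.16 and 19.70 in stroma, 9.86, 9.38 and 12.79 in MaSC/basal cells, 3.24, 3.34 and 4.89 in luminal progenitors and 7.44, 7.95 and 9.24 in mature luminal cells. No values of different populations overlapped, and the order from the top was stroma, MaSC/basal, mature luminal and luminal progenitor. Stroma exceeded the epithelial mean by 12.14 (SE 0.61, adjusted p = 5.1e-09 from limma). Its precursor, Mir382, lies at chr12:109733771-109733846.

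miR-379 and miR-411 are read from the first precursors of the large cluster. miR-379 (Mir379, chr12:109709060-109709125) stood at 22.18, 22.73, 22.35 and 22.14 in stroma. In epithelium it had 15.88, 15.99 and 15.87 in MaSC/basal cells, 14.80, 14.47 and 15.20 in luminal progenitors and 15.06, 14.58 and 14.85 in mature luminal cells. Its samples fell into a stromal, a MaSC/basal and a luminal level without overlap, with stroma 143-fold above epithelium (log2 difference 7.16, SE 0.16, adjusted p = 2.8e-12), if each cycle doubles the product. miR-411 showed the same order, at 21.80 to 22.12 in stroma, 16.51 to 17.03 in MaSC/basal cells and 15.27 to 15.87 in both luminal populations (log2 difference 6.00, SE 0.14, adjusted p = 4.1e-12). Its precursor, Mir411, lies at chr12:109710175-109710256.

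From the other end of the region, miR-337-5p (Mir337, chr12:109585789-109585885) had 17.98, 18.51, 18.36 and 18.51 in stroma and between 10.84 and 12.37 in the 9 epithelial samples, a difference of 6.88 (SE 0.16, adjusted p = 2.5e-12). miR-543 was at 15.04 to 15.55 in stroma and 7.59 to 11.49 in epithelium (5.87, SE 0.32, adjusted p = 1.2e-08). Neither overlapped between stroma and epithelium. miR-370, which stands alone between the groups of precursors and is set in Rian, was less even. It had 14.91, 15.47, 15.03 and 14.78 in stroma, 12.28, 8.38 and 13.28 in MaSC/basal cells, 7.92, 4.94 and 8.19 in luminal progenitors and 6.77, 4.59 and 10.64 in mature luminal cells. Within epithelium its sample of mouse pool 2 was the lowest of each population, and all stayed below stroma (6.49, SE 1.16, adjusted p = 0.000329). The rest of the 18 rose by 1.67 (miR-667) to 5.67 (miR-409-3p).

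The exceptions were miR-666-5p and miR-667. miR-666-5p had 7.88, 9.02, 8.65 and 8.56 in stroma, 6.11, 10.08 and 8.21 in MaSC/basal cells, 8.47, 7.84 and 10.59 in luminal progenitors and 6.28, 7.09 and 7.91 in mature luminal cells. The groups overlapped and no difference was detected (0.46, SE 0.70, adjusted p = 0.559). With U6 alone as the reference it was 2.84 higher in stroma (adjusted p = 0.0054), and without normalization 2.43 (adjusted p = 0.00788). miR-667 was called, but its stromal range of 13.65 to 14.25 lay inside the epithelial one, which reached 14.40 in MaSC/basal 1. Both precursors sit in the large cluster, between those of miR-494 and miR-376c.

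**Figure D2:**
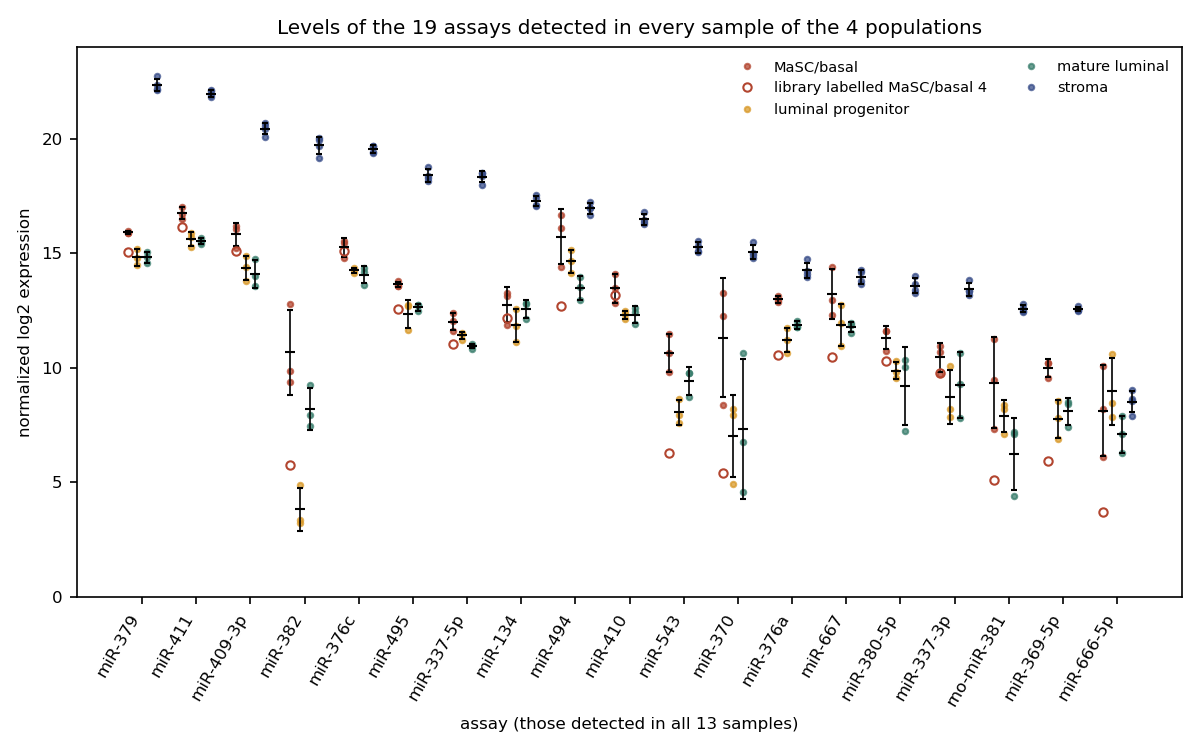
Normalized log2 expression (vertical axis) of the 19 assays detected in all 13 samples (horizontal axis, ordered by the stromal mean). Points are samples, black marks the mean and SD of each population, and open circles the library labelled MaSC/basal 4, which is not in the means. Stroma lies above all epithelial samples for 17 of the 19, and not for miR-667 and miR-666-5p.

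A group of members was detected in stroma and gave no signal in epithelium. The weakest of those tested were rno-miR-377, detected in 3 of the 4 stromal samples, and rno-miR-493, at 4.26 to 7.72 in stroma. Of the 12 of this kind that were tested, miR-673-3p had 15.08, 15.77, 15.52 and 15.87 in stroma and a Ct of 40 in all 9 epithelial samples. miR-485 had 14.27 to 15.06, miR-673-5p 13.93 to 14.30 and miR-409-5p 13.86 to 14.22, again with no epithelial detection. These 12 passed the filter through stroma alone, so that their difference was set by the choice and is described here without a test. With undetected reactions at a Ct of 40 the log2 differences of the 4 were 14.49, 13.59, 13.14 and 13.05, and with values under 5.5 set to 5.5 they were 10.06, 9.13, 8.66 and 8.57. Their size depends on the value given to an undetected reaction. Over the 11 of the 12 that were detected in all 4 stromal samples, the differences ran from 4.80 to 14.49 with a median of 10.22 with a Ct of 40. The first 3 of these assays are on plate B, where small nucleolar RNA controls differed as well. snoRNA135, U87 and snoRNA429 were undetected there in 9 of 9 epithelial samples and had a Ct of 16.32, 20.81 and 16.63 in stroma, and snoRNA202 had 33.66 in epithelium and 13.72 in stroma. On the same plate the mean Ct of U6 was 11.74 for epithelium and 12.43 for stroma, and that of Y1 25.76 and 24.45. Of the assays tested on plate B 67.3% were higher in stroma, and all 5 tested members of the plate lacked epithelial signal. The part of the plate in these differences was not tested. miR-409-5p is on plate A, where all controls for mouse RNA were detected in every sample. In epithelium and stroma U87 had a Ct of 22.31 and 21.76, U6 12.57 and 12.72, snoRNA135 18.84 and 17.13, snoRNA202 16.31 and 13.92, and Y1 27.89 and 21.35. Y1 was thus detected earlier in stroma by more cycles than the other plate A controls.

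The stromal excess was seen against each epithelial population. Relative to MaSC/basal cells 42 of the 46 were higher in stroma (46.2% of all assays), and relative to luminal progenitors and mature luminal cells 45 each (49.2% and 46.4%). None was lower in any of the 3, also at an unadjusted p under 0.05. The 12 of the 46 without epithelial signal, and others, passed the filter through stroma alone, so these counts rest in part on it. This does not apply to the 19 detected in all 13 samples. Of these 19, 17 were higher in stroma than in MaSC/basal cells (33.2% of the 304 assays so detected). Relative to luminal progenitors and mature luminal cells 18 each were (35.5% and 33.2%). The comparisons share the stromal samples. The members not called against MaSC/basal cells were miR-493 (1.34, SE 1.17, adjusted p = 0.317), miR-667 (0.74, SE 0.50, adjusted p = 0.204), miR-666-5p and rno-miR-673. For miR-493 the call was made against the luminal populations.

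Both arms of a precursor were higher in stroma wherever both were tested, but only for miR-337 were both detected in every sample. miR-369-3p, miR-380-3p, miR-409-5p and both arms of miR-673 passed the filter through stroma alone, so their excess was set by the filter. miR-337-5p exceeded epithelium by 6.88 and miR-337-3p by 3.96 (SE 0.53, adjusted p = 3.2e-05). miR-409-3p, detected in all samples, was 5.67 higher (SE 0.28, adjusted p = 3.7e-09), while its 5p partner had no epithelial signal. For miR-369 and miR-380 the 5p arm was seen in every sample (3.94 and 3.45 higher in stroma). Their 3p arms were seen in all stromal samples, but miR-369-3p in only 1 epithelial sample and miR-380-3p in none. With undetected reactions at a Ct of 40 these were 9.92 and 7.52 higher in stroma, and with values under 5.5 set to 5.5 they were 5.88 and 2.86 higher. Of the miR-540 pair the 5p arm was detected in stroma at 8.43 to 9.94 and the 3p arm nowhere. Of the miR-654 pair the 3p arm was detected in 1 stromal sample, at 7.14, and the 5p arm nowhere. Whether arms of a pair differ in their stromal excess was not tested, and assays can differ in efficiency.

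Mouse and rat assays of the same number did not always both give signal. rno-miR-381 was detected in all 13 samples (4.74 higher in stroma, SE 0.69, adjusted p = 6.7e-05), and mmu-miR-381 in all 4 stromal and 5 of 9 epithelial samples (7.13 higher, SE 1.72, adjusted p = 0.00262, and 4.27 with undetected reactions left out). mmu-miR-543 was detected throughout and rno-miR-543 nowhere. The reverse held for miR-758, where the mouse assay of plate B gave no signal and rno-miR-758 of plate A had 11.05, 11.39, 11.34 and 10.68 in stroma. In epithelium rno-miR-758 crossed the threshold once, in luminal progenitor 1, at a value of 1.03 that lies among those of undetected reactions. mmu-miR-377 was detected in all stromal samples and rno-miR-377 in 3 of 4, mmu-miR-409-5p in 4 and rno-miR-409-5p in 2. For miR-493 both assays were detected in all 4, at 7.52 to 9.27 (mouse) and 4.26 to 7.72 (rat). The 7 assays that did not enter the tests were miR-487b, miR-540-3p, miR-654-3p, miR-654-5p, rno-miR-409-5p, rno-miR-543 and mmu-miR-758.

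Within the epithelium, a larger share of the region's miRNAs than of all assays was called higher in MaSC/basal than in luminal cells. Relative to both luminal populations together, 21 of 46 were higher in MaSC/basal cells (23.1% of all assays tested) and none lower, also at an unadjusted p under 0.05. Their median difference was 1.12, against 0.14 over all assays. Of the 19 detected in all 13 samples 16 were called (30.6% of the 304 assays), and 12 had every MaSC/basal value above every luminal value (24.3%). With the library labelled MaSC/basal 4 these counts were 7 (16.8% of the 304) and 4 (4.28%). The MaSC/basal mean was the highest of the 3 epithelial means for 18 of the 19, and for miR-666-5p the luminal progenitor mean was. The share of the 304 assays with this order is not given here, so that count is a description. With that library in the fit, 8 of all tested members were higher and none lower. The share over all tested assays in that fit is not given here, so this count is a description. For 15 of the 19 it lay below the lowest of MaSC/basal 1 to 3 and for none above the highest. The test among the 3 populations in either direction called 14 of the 46, a share below the 44.4% of all assays. With that library it called 7, again without the share over all assays.

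Relative to MaSC/basal cells, 16 were lower in luminal progenitors (20.7% of all assays) and 15 in mature luminal cells (22.0%). None was higher in either, also at an unadjusted p under 0.05. Of the 19 detected throughout, 11 were lower in luminal progenitors (26.6% of the 304) and 14 in mature luminal cells (31.2%). These counts were 6 (14.5%) and 5 (14.8%) with the library labelled MaSC/basal 4. The medians over the 46 were -1.11 and -1.17, and over all assays -0.07 and -0.19. Over all tested members that library made the counts 7 and 5, for which the share over all tested assays is not given here. In each of the 3 mouse pools the sign was the same for 15 of the 16 and 15 of the 15 called members. They were called on the same pools, so this is no independent support. Both comparisons share the MaSC/basal samples.

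The largest of these differences were in luminal progenitors. miR-382, with the values given above, had a log2 difference of -6.85 there (SE 0.83, adjusted p = 6.2e-05) and of -2.47 in mature luminal cells (SE 0.83, adjusted p = 0.0398). The second call was lost without MaSC/basal 3, luminal progenitor 2, mature luminal 1 or 2 or stroma 1, 2 or 4 (adjusted p 0.051 to 0.13), and in the epithelial samples alone (adjusted p = 0.0983), without normalization (0.143) and with no filter (0.0546). Adding the library labelled MaSC/basal 4 moved it to -1.24 (adjusted p = 0.475). miR-544 had 10.08, 9.08 and 8.36 in MaSC/basal cells, only 1 detected luminal progenitor sample, at 5.77, and 7.50, 7.24 and 6.94 in mature luminal cells. Its difference in luminal progenitors was -6.55 (SE 1.03, adjusted p = 0.000399) with undetected reactions at a Ct of 40, -3.58 with values under 5.5 set to 5.5 and -3.40 with undetected reactions left out, and it was called in each. It was undetected in the library labelled MaSC/basal 4, and that library ended the call (adjusted p = 0.102).

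miR-329, a miRNA known to act in neurons of rat and mouse, had 8.40, 9.51 and 10.54 in MaSC/basal cells but was detected in 1 luminal progenitor sample, at 8.43, which lies inside the MaSC/basal range. Its call (-5.86, SE 1.95, adjusted p = 0.0367) was lost without any 1 of the MaSC/basal samples, luminal progenitor 2 or 3 or any stromal sample (adjusted p 0.0512 to 0.137), in the epithelial samples alone (adjusted p = 0.112) and with no filter (0.0561). The size rests on the undetected samples, since it was -1.05 (adjusted p = 0.248) with these left out, while with values under 5.5 set to 5.5 it was called (adjusted p = 0.0102). miR-493 had 5.35, 7.61 and 8.54 in MaSC/basal cells, 1 detected luminal progenitor sample at 5.94 and no detected mature luminal sample. Its difference was -4.59 in luminal progenitors (SE 1.25, adjusted p = 0.0138) and -6.38 in mature luminal cells (SE 1.25, adjusted p = 0.00185), with undetected reactions at a Ct of 40. The luminal progenitor call was lost without MaSC/basal 3 or luminal progenitor 1 or 2 (adjusted p 0.0579 to 0.061), in the epithelial samples alone (adjusted p = 0.0511) and with undetected reactions left out (-1.23, adjusted p = 0.457). Both calls were lost with values under 5.5 set to 5.5 (-1.57 and -1.72, adjusted p = 0.102 and 0.0738) and with the library labelled MaSC/basal 4 (-3.04 and -4.83, adjusted p = 0.226 and 0.0626).

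In mature luminal cells, miR-494 had 12.96, 13.51 and 13.98, below the 14.40, 16.67 and 16.12 of MaSC/basal cells (log2 difference -2.25, SE 0.52, adjusted p = 0.00507). The call was lost with the library labelled MaSC/basal 4 (-1.49, adjusted p = 0.183) and without normalization (-2.06, adjusted p = 0.0666). The luminal progenitor samples, at 14.13, 14.65 and 15.15, overlapped with MaSC/basal cells. rno-miR-381 had 7.20, 7.09 and 4.42 against 7.33, 11.26 and 9.48 (-3.12, SE 0.94, adjusted p = 0.0235), a call lost without MaSC/basal 2 or 3 or mature luminal 3 (adjusted p 0.0533 to 0.0857), in the epithelial samples alone (adjusted p = 0.0822) and with the library labelled MaSC/basal 4 (-2.05, adjusted p = 0.226). The other called members detected in all samples had differences of -0.60 (miR-337-5p) to -2.60 (miR-543) in luminal progenitors and of -0.99 (miR-495) to -2.11 (miR-380-5p) in mature luminal cells.

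The 2 luminal populations differed little. Only miR-382 (4.39, SE 0.83, adjusted p = 0.0041) and miR-544 (4.60, SE 1.03, adjusted p = 0.00886) were higher in mature luminal cells than in luminal progenitors, against 10.9% of all assays. None was lower, and 1 was at an unadjusted p under 0.05. With mouse pool as a fixed block 1 was called lower. For miR-382 each mature luminal value lay above each luminal progenitor value. For miR-544 the size rests on undetected luminal progenitor samples, since it was 1.63 (adjusted p = 0.0064) with values under 5.5 set to 5.5 and 1.45 (adjusted p = 0.0814) with undetected reactions left out. For miR-382 it was 2.71 with values under 5.5 set to 5.5 (adjusted p = 0.0268). With the library labelled MaSC/basal 4 in the fit neither was called (adjusted p = 0.0582 and 0.192), and without luminal progenitor 3 the number higher was 4.

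Among the 14 members detected in part of the epithelium, MaSC/basal 1 to 3 again gave the most signal, with 25 of 42 reactions detected, against 12 of 42 in luminal progenitors and 15 of 42 in mature luminal cells. Per sample these were 9, 7 and 9, then 4, 2 and 6, then 4, 5 and 6. Over all assays MaSC/basal 1 to 3 detected 346 to 366. Luminal progenitors detected 338 to 349 and mature luminal cells 352 to 362. The share over all assays detected in part of the epithelium is not given here, so the members' counts are a description. The library labelled MaSC/basal 4 detected 1 of 14.

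Some miRNAs of the muscle, mesenchymal and endothelial marker lists moved with the epithelial differences. Of 5 assays of muscle miRNAs, among them a mouse and a rat assay of miR-1, 4 were higher in MaSC/basal than in luminal cells. The exception was miR-206. Their summed levels were 22.95 to 23.96 in MaSC/basal 1 to 3, 16.48 to 16.91 in luminal progenitors and 18.52 to 19.12 in mature luminal cells. The study describes miR-1 and miR-133a as specific to MaSC/basal cells, which hold myoepithelial cells. Of 6 mesenchymal miRNAs 2 were higher, miR-143 and miR-145, which smooth muscle also carries, with summed levels of 28.30 to 29.43, 23.65 to 24.08 and 22.35 to 22.99. Of 2 endothelial miRNAs 1 was higher. Of the mesenchymal list, miR-199a-3p and miR-214, which were 8.18 and 8.03 higher in stroma, differed by 0.45 (adjusted p = 0.204) and 0.00 (adjusted p = 0.991) between MaSC/basal and luminal cells. None of 5 blood cell miRNAs was called. The part of these cells in the levels of the region's miRNAs was not tested.

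All 3 groups of precursors showed the stromal excess. In the group from Mir770 to Mir665 10 of 10 tested assays were higher in stroma (median 6.97), Mir370 added 1 of 1, and in the group from Mir379 to Mir410 34 of 35 were (median 6.08), against 47.9% of all assays. In the first group 3 of the 10, all on plate B, had no epithelial signal, and in the third 9 of the 35. These passed the filter through stroma alone. So did miR-540-5p, miR-665, miR-770-3p and rno-miR-673 in the first group, and miR-369-3p, miR-453, miR-539 and rno-miR-758 in the third. The stromal counts of the groups therefore rest in part on the filter and are a description. Called higher in MaSC/basal than in luminal cells were 3 of 10, 1 of 1 and 17 of 35, with medians of 1.15, 4.14 and 1.10, against 23.1% of all assays, to which the share in the first group is near. The groups were not tested against each other, since assays of 1 transcript are not independent. The Rtl1-antisense miRNAs, whose precursors lie between Mir665 and Mir370, had the same order of populations. Of their 6 assays 6 were higher in stroma (median 4.58), against 47.9% of all assays. For luminal progenitors against MaSC/basal cells 6 were lower (20.7% of all assays), and for mature luminal cells 6 (22.0%). Of 11 asterisk assays of the members' precursors, all on plate B, 10 were tested and 10 were higher in stroma (median 9.27), against 67.3% of the plate's assays. Of these 8 had no epithelial signal and passed the filter through stroma alone, so the count is a description.

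**Figure D3:**
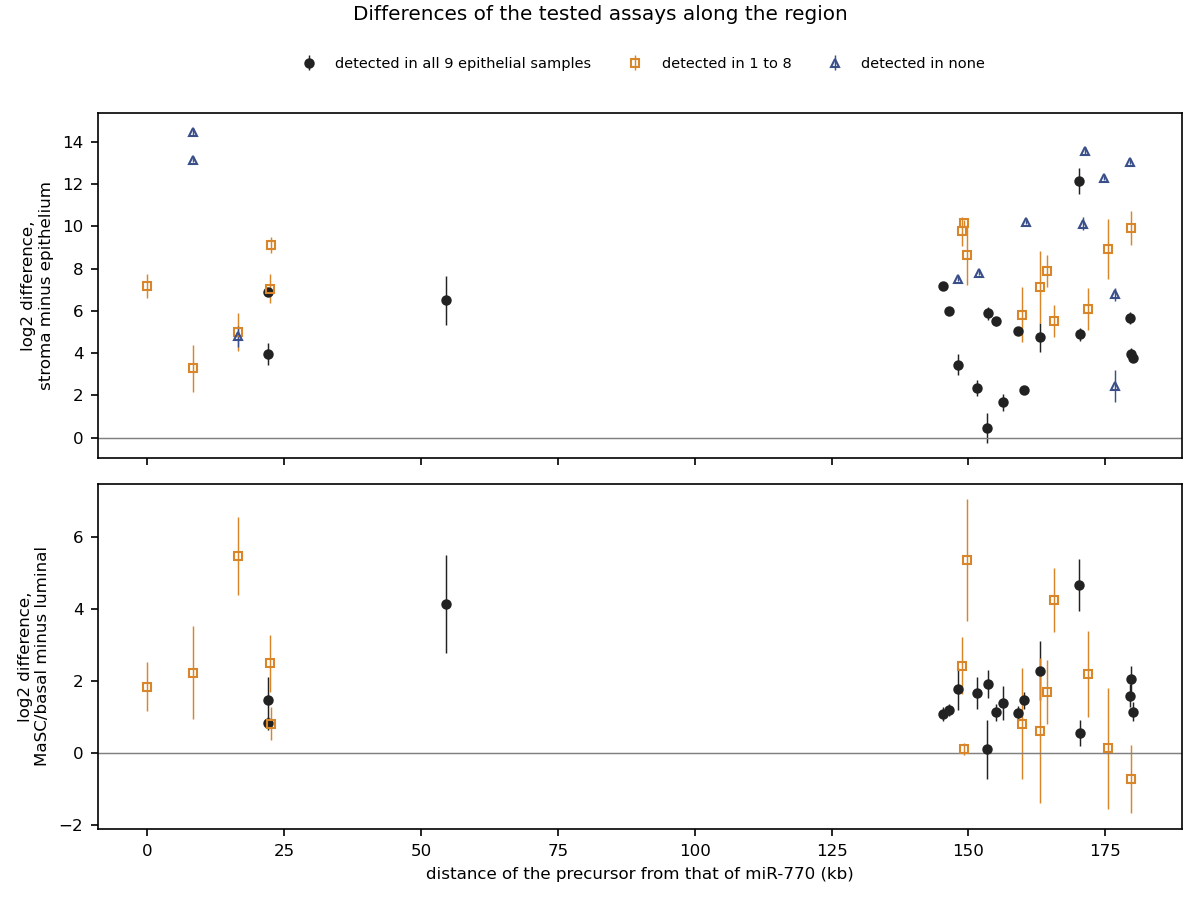
Log2 difference with its SE (vertical axes) of the 46 tested assays against the distance of their precursor from that of miR-770 in kb (horizontal axis), for stroma minus epithelium (top) and MaSC/basal minus luminal cells (bottom, without the 12 assays undetected in all 9 epithelial samples). Symbols give in how many epithelial samples an assay was detected, and for those detected in none the difference rests on undetected reactions at a Ct of 40. Values above 0 are seen over the whole length in both panels, and miR-369-3p is the lowest of the bottom panel.

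Other scalings of the samples left these directions in place. Stroma minus epithelium over all assays has a median of 0.62 with the deposited normalization, 2.71 with U6 alone as the reference and 2.29 without normalization. The members' median minus that of all assays was 6.02, 6.16 and 6.16. U6 alone and no normalization differ only by a shift common to all assays of a sample. Such a shift cannot change this difference, so its equal value is no support. Of all assays called, 58.7%, 84.7% and 81.9% were higher in stroma. For MaSC/basal minus luminal cells the share higher was 57.3% with the deposited normalization and 82.7% with U6 alone. It was 47.4% with median centring and 58.1% without normalization. All 19 members detected throughout were above 0 under each of the 4 scalings. The lowest of the 19 was at 0.1, 1.08, 0.02 and 0.12 in the same order.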

How the data were processed

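miRNAs of 14 samples of sorted mouse mammary cells were measured by stem-loop reverse transcription, pre-amplification for 12 cycles and real-time PCR on 2 array plates. The labels name a human primer set for the pre-amplification, where the study's methods list a mouse and a human set. The authors deposited raw Ct values (an instrument score, with 40 for undetected reactions) for 597 assay positions, and normalized log2 values for 584 assays, made as 40.5 minus Ct and cyclic loess in limma (span 0.7, 5 iterations, U6 weighted 100). A further deposited table holds the authors' comparison of MaSC/basal with luminal cells (log2 differences, p-values) and was not used.

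Normalized values were used as deposited, and Ct values to tell detected reactions. Population means were fitted with lmFit and eBayes (limma 3.58.1, R 4.3.3) over 13 samples, without a term for mouse pool, for the 459 assays with a value of at least 2 in at least 3 samples (9 residual and 1.44 prior degrees of freedom). The p-values were adjusted by Benjamini-Hochberg over all 459, with a threshold of 0.05, and measure the spread between these samples only. All 4 populations share 1 spread in this fit, so the stromal samples of 1 pool also enter the SEs of the epithelial comparisons. For the 19 members detected throughout, the median SD between samples was 0.25 in stroma. In MaSC/basal, luminal progenitor and mature luminal cells it was 0.64, 0.54 and 0.51. The number of assays detected per sample and the number of samples limit the precision. The fit was tested on simulated data.

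The labels give same-numbered epithelial samples 1 mouse pool. Over their deviations from the population means, the median correlation was 0.222 for 9 pairs within a pool, 7 of them above 0.1. For 18 pairs across pools it was -0.116, so pool was also fitted as a block. Other alternatives were all 14 samples, U6 alone as the reference, median centring, no normalization, no filter or one at 5.5, undetected reactions left out or values under 5.5 set to 5.5, each sample left out, epithelial samples alone and plate A alone. The members, marker lists and alternatives were chosen with earlier results of these data known. Named with values by sample are the 6 members with the largest stromal difference among those detected in all 13 samples, the 4 highest in stroma among those undetected in epithelium, those not called, the 4 largest called in each direction of the epithelial comparisons, and those with a mouse and a rat assay or both arms. miR-299, miR-341, miR-412 and miR-541 gave no member and are not analysed here. Sequences and coordinates are from RefSeq (GRCm38.p6).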

Additional observations from a re-analysis of the deposited data

Results flagged for a closer look

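In groups of 4 samples, a value is named here if its gap to the nearest other sample is a larger part of the group's range than Dixon's critical value, which chance gives in about 1 group in 20. Of 44 members detected in all 4 stromal samples 1 met this, and of 20 detected in all 4 libraries labelled MaSC/basal 4 did. In stroma, miR-376b was at 12.99 in sample 4 and at 13.32 to 13.38 in the others. The other 4 values were all the lowest of their group and all from the library labelled MaSC/basal 4. They were miR-369-5p at 5.95 against 9.56 to 10.23, miR-376a at 10.54 against 12.85 to 13.14, miR-379 at 15.07 against 15.87 to 15.99 and miR-495 at 12.56 against 13.57 to 13.77. The same library had the low muscle and mesenchymal sums given with the marker miRNAs.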

How the results depend on the processing

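Each tested member stayed higher in stroma than in epithelium with all 14 samples, under the 3 other scalings and on plate A alone, as did the members named with values under each other alternative that could test them. The count called higher was 45 with all 14 samples. Where a count changed, the cause was not tested unless stated. Counts of members called are given here without the share over all assays under the same alternative. With the library labelled MaSC/basal 4 included, 7 members were lower in luminal progenitors than in MaSC/basal cells, 5 were lower in mature luminal cells than there, 8 were higher in MaSC/basal than in luminal cells, 0 were higher in mature luminal cells than in luminal progenitors, and 7 were called among the epithelial populations. With U6 alone as the reference 25 were called among them, and without normalization 2 were lower in mature luminal than in MaSC/basal cells. With no filter, 4 members were called lower in stroma than in epithelium and than in each of its populations. They are the 4 with a Ct of 40 in all samples, to which the loess gives different values by sample. With undetected reactions left out, 24 were higher in stroma than in epithelium, 26 than in luminal progenitors and 26 than in mature luminal cells, since members without epithelial signal could not be tested, and 1 was lower in mature luminal cells than in luminal progenitors.

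With mouse pool as a fixed replicate block, the number lower in mature luminal cells than in luminal progenitors was 1 in place of 0. Stroma fills a pool of its own and could not be tested with this block. The block changed no other epithelial count by over 1.5 times (19 lower in luminal progenitors, 17 lower in mature luminal cells, 23 higher in MaSC/basal than in luminal cells, 20 among the epithelial populations). With a random block 43 members were higher in stroma than in epithelium. The difference of rno-miR-377 was 2.45 with this block, 1.35 with median centring and 0.13 with values under 5.5 set to 5.5. That of rno-miR-493 was 0.55 with values under 5.5 set to 5.5, and none of these was called. Both assays passed the filter through stroma alone, so these sizes are a description and not a test.

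Leaving out each of the 13 samples gave 44 to 45 members higher in stroma than in epithelium, 37 to 42, 42 to 45 and 43 to 45 against MaSC/basal, luminal progenitor and mature luminal cells, 11 to 18 lower in luminal progenitors and 12 to 18 lower in mature luminal cells than in MaSC/basal cells, 14 to 21 higher in MaSC/basal than in luminal cells and 14 to 19 called among the epithelial populations. The number higher in mature luminal cells than in luminal progenitors was 2 to 4, the last without luminal progenitor 3, and the number lower 0 to 1, the last without MaSC/basal 1. Of all assays called, the share higher in the luminal population than in MaSC/basal cells moved with the scaling. For luminal progenitors it was 43.5% with the deposited normalization, 15.1% with U6 alone, 51.2% with median centring and 28.8% without normalization. For mature luminal cells these shares were 38.8%, 23%, 52.5% and 59.1%. Values near a Ct of 40 limit the members detected in few samples.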
